A study of Mus musculus with 6 samples.

Results

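Cyp2b9, Cyp2b10 and Cyp2b13 are the mouse liver genes of cytochrome P450 subfamily 2B that were looked for on 6 liver arrays, and they were found through the RefSeq transcript accession that each probe carries. Of the 34967 mouse probes on an array, 3 matched: 1 for Cyp2b9 and 2 for Cyp2b13. No probe matched Cyp2b10 by accession, so 2 of the 3 genes are described. Another 20204 probes carry no accession that the RefSeq table pairs with 1 gene, and whether one of them reads Cyp2b10 was not settled. The genes were chosen from the very comparison reported here, transgenic against wild-type signal, so their own values are given as a description without a test.

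The samples were livers of c57bl/6 mice aged 14 months. The control group was wild type and had 3 arrays (replicates 1, 2 and 4). The other group carried human c-Src, a tyrosine kinase proto-oncogene, as a transgene under the mouse metallothionein promoter, also with 3 arrays (replicates 1, 3 and 4). The submitters left out wild-type sample 3 and transgenic sample 2 for weak signal, and no carcinogen was given to the mice. The promoter responds to zinc, which the study describes as usually not needed, and the labels do not say whether these animals received it, what their sex was or whether the pieces of liver held tumour.

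Enzymes of the 2B subfamily are haem proteins of the endoplasmic reticulum that hydroxylate testosterone and oxidise drugs and other foreign compounds. They take electrons from cytochrome P450 oxidoreductase, the product of Por, with help from cytochrome b5. Cyp2b10 is the classical target of the nuclear receptor CAR, encoded by Nr1i3, and answers to phenobarbital-like compounds. Cyp2b9 and Cyp2b13 are known as genes expressed mainly in female mouse liver, where the sex difference is set by the pattern of growth hormone release acting through STAT5.

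Cyp2b13 and Cyp2b9 are neighbours on chromosome 7, and the DNA just upstream of their annotated starts is nearly the same. The 250 bases before each start are printed to show how alike these stretches are. They come from RefSeq (GRCm38.p6, plus strand, chr7:26173159-26173408 for Cyp2b9 and chr7:26061245-26061494 for Cyp2b13), and capitals mark the bases at which they differ.
Cyp2b9: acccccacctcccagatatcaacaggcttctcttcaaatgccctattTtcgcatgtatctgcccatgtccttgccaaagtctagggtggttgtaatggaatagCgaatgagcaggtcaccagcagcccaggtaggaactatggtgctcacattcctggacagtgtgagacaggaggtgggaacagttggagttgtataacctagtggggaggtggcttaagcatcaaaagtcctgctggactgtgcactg
Cyp2b13: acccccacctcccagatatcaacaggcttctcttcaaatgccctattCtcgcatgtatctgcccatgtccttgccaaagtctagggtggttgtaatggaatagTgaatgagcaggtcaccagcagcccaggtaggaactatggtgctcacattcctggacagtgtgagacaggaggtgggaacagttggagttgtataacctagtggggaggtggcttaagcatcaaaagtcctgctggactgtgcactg

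The stretches share 248 of 250 bases (99.2%). Counted from 1 at the left, the differences are T48C and C104T, with the Cyp2b9 base first. The same stretch of Cyp2b10 was 70.0% identical to each of them in a global alignment of 260 columns. Short motifs were searched on both strands of the 250 bases and in 32851 windows of that length from the RefSeq promoter table. Both genes held 1 match to AGGTCA, the core hexamer of nuclear receptor sites, at the same place, and 14.0% of the windows held one. Both held 1 match to TTGCNNAA, a C/EBP-type site (9.56% of windows), and 2 matches to CANNTG, the E box (66.2%). Neither held TTCNNNGAA, a STAT5-type site (7.02%), TATAAA, the TATA box (12.4%), CCAAT, the CCAAT box (33.8%), TGTTTAC, a FOXA-type site (3.17%), or ATTGAT, an HNF6-type core (6.72%). These bases lie before the annotated starts, so they do not show how alike the transcripts are. Transcript and probe sequences were not compared here, and a probe of one gene may read transcripts of the other.

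The deposited value of a spot is its signal after background was taken out, on a linear scale. Median probe signal lay between 53.8 and 93.4 in wild-type livers and between 94.8 and 117 in transgenic livers, so that levels are also given on a log2 scale after quantile normalization, which gives each array the same distribution. A probe counts as above background when its signal passes a threshold set from control spots, which was 33.0 to 50.6. Between groups, array correlations across features were 0.86 to 0.94, and within groups 0.87 to 0.92. Transgenic replicate 4 stood apart on Y-linked genes, as given further on, and the larger differences that rest on it are also given without it. The labels number the wild-type samples as controls without stating separate animals, so p-values measure the spread between these arrays only. The 3 arrays a group limit the precision of every value.

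Cyp2b9, a steroid hydroxylase gene, was read by probe GE35281. Its signal was 51.5, 90.5 and 103 on wild-type replicates 1, 2 and 4, above background on each. It was 2331, 478 and 4925 on transgenic replicates 1, 3 and 4. Every transgenic array was thus above every wild-type array, with transgenic replicate 4 highest and replicate 3 lowest of the 3. As multiples of each array's median, which is the authors' own scaling, the probe stood at 0.96, 1.18 and 1.10 in wild-type livers. In transgenic livers it stood at 24.6, 4.30 and 42.0. A gene near the middle of the array in wild-type liver was therefore well up the range in each transgenic liver.

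Mean log2 signal of Cyp2b9 was 6.57 ± 0.15 (SD, n = 3) for wild type, compared with 10.57 ± 1.75 (SD, n = 3) for the transgenic group. The log2 difference was 4.00 ± 0.83 (SE from limma's fit over all features), or 16.0-fold. Set against the wild-type mean, the single transgenic arrays were higher by 4.54, 2.05 and 5.42. Over all 34175 features, which are named genes and unnamed probes, 10.1% had groups that did not overlap with the transgenic side higher. This share is printed for scale only, since Cyp2b9 and Cyp2b13 were picked for such a pattern. Of 13971 named genes, 4, Cyp2b9 included, had a log2 difference at least as large.

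Cyp2b13, which encodes a closely related hydroxylase, was read by probes GE34922 and GE1541918. The brighter probe, GE34922, gave 27.7, 41.4 and 44.9 on wild-type replicates 1, 2 and 4. It gave 361, 108 and 3463 on transgenic replicates 1, 3 and 4. Of its wild-type values 1 passed the background threshold, as did all 3 transgenic values, and the groups did not overlap. Its mean log2 signal was 5.47 ± 0.07 (SD, n = 3) for wild type, compared with 8.77 ± 2.55 (SD, n = 3) for the transgenic group. The log2 difference was 3.30 ± 1.19 (SE), or 9.84-fold on that scale. With wild-type signal so near the threshold, that fold depends on how low values are treated.

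The other Cyp2b13 probe, GE1541918, gave 7.35, 6.64 and 6.06 in wild-type livers, none of them past the threshold. It gave 210, 28.3 and 2316 on transgenic replicates 1, 3 and 4, of which replicate 3 was not above background. On the log2 scale it read 2.83 ± 0.20 and 7.67 ± 3.18 (SD, n = 3 each). Against the lowest wild-type values that count as above background, it was at least 4.33-fold higher in transgenic livers. This bound compares group means and leaves out the spread between arrays: the replicate 3 value of 4.54 lies under the wild-type level of 5.56 used for it. Replicates 1 and 4 read 7.60 and 10.89, and the bound was not taken without replicate 4. The log2 difference of this probe was 4.85, or 3.19 without replicate 4, with wild-type values below background. Both probes put the 3 transgenic livers in the same order.

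**Figure D1:**
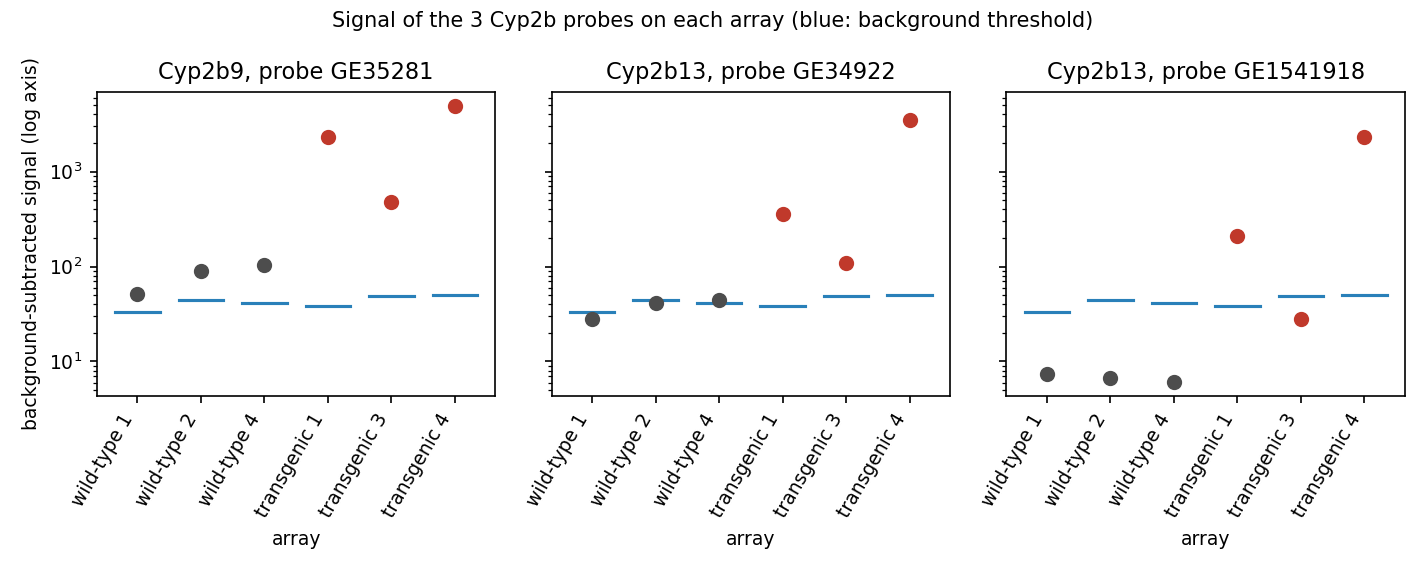
Background-subtracted signal (log axis) of the Cyp2b9 probe and both Cyp2b13 probes on each of the 6 arrays, 1 point per array; grey marks wild-type, red transgenic arrays, and blue bars each array's background threshold. Cyp2b9 runs from 51.5 to 103 in wild-type and from 478 to 4925 in transgenic livers, and in every panel transgenic replicate 4 is highest and replicate 3 lowest of the transgenic points.

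The Cyp2b genes varied less among the wild-type livers than among the transgenic ones. The transgenic SD of GE34922 on the log2 scale, 2.55, was reached or passed by 175 of the 13971 named genes, and its wild-type SD, 0.07, was as small or smaller in 415. For Cyp2b9 the transgenic SD of 1.75 was reached by 406 named genes, and its wild-type SD, 0.15, was as small or smaller in 2259. The genes also differed in how the transgenic livers stood to each other. Cyp2b9 was 0.88 log2 units higher on transgenic replicate 4 than on replicate 1, and Cyp2b13 by GE34922 was 3.09 units higher. No bright or dim patch of an array covered any of the 3 spots. Leaving out transgenic replicate 4 brought the log2 difference to 3.31 for Cyp2b9 and 1.93 for GE34922. Both remained higher in the other transgenic livers, with Cyp2b13 moving more as a share of its value. For GE1541918, only replicate 1 of those livers was above background.

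The Pearson correlation between Cyp2b9 and GE34922 over the 6 arrays was 0.94, and between both Cyp2b13 probes 0.99. These are descriptions over 3 wild-type values that lie close together and 3 spread transgenic ones, from arrays that the probes share.

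Other genes of the same stretch of chromosome 7 had smaller differences. From the first to the last Cyp2 gene around Cyp2b9, the annotation has 18 protein-coding genes, of which 8 had a matched probe (this set was chosen after the values were seen). Cyp2g1, known as an olfactory P450 gene, read 8.75, 9.23 and 9.67 in wild-type livers, compared with 10.06, 9.93 and 11.26 for transgenic replicates 1, 3 and 4. Its groups did not overlap, and its log2 difference of 1.20 ± 0.44 (SE) did not pass limma's test (adjusted p = 0.69). Without transgenic replicate 4 it was 0.78. Cyp2a5, the coumarin 7-hydroxylase gene, had a log2 difference of 0.24 ± 0.31 (limma adjusted p = 0.83), which turned to -0.08 under median scaling. Its transgenic replicate 4 value, 13.42, was above the wild-type range of 12.49 to 12.71, while replicate 1 was below it at 12.33. Cyp2b19, a keratinocyte gene of the same subfamily, had 0.09 ± 0.25 (-0.10 after local correction of patches), and Cyp2f2, a naphthalene-oxidising P450 of lung and liver, had -0.28 ± 0.23 (limma adjusted p = 0.93 and 0.75). Cyp2s1, which lies upstream of the Cyp2b genes, was above background on no array. The pheromone receptor gene Vmn1r185 was above background on 1 array, so that no difference is given. None of these neighbours passed the test, where 0 of all 34175 features did. The difference between them and the Cyp2b genes was not tested.

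**Figure D2:**
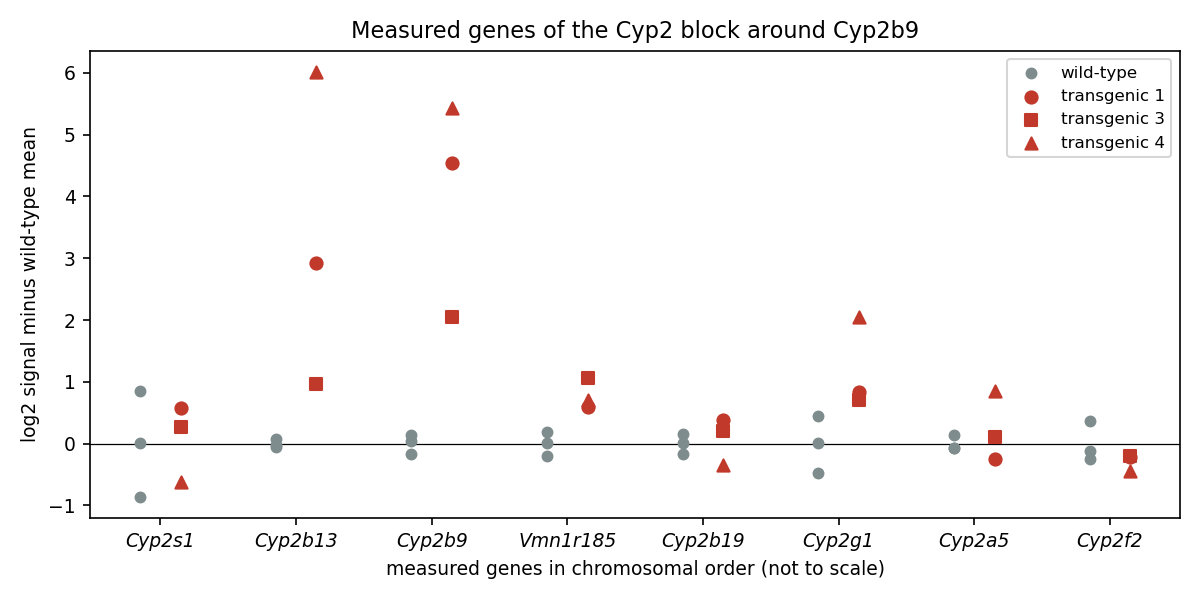
Log2 signal minus the gene's wild-type mean on each array for the 8 measured genes of the Cyp2 block, in chromosomal order but not to scale; grey points are wild-type arrays and red symbols the 3 transgenic arrays. Cyp2b13 and Cyp2b9 reach 6.01 and 5.42 on transgenic replicate 4, and Cyp2a5 lies above its wild-type range there.

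The receptors, heat shock partners and redox proteins on which 2B enzymes depend were described next, as 23 tested genes of 24 listed. None passed limma's test over all features in either direction, against a background of 0 of 34175 features called. Unadjusted p-values under 0.05 belonged to 2 genes with a higher and 0 with a lower transgenic mean, where 4.37% and 2.72% of all features had one. The list's median log2 difference was -0.03, against 0.02 over all features. Nr1i3, which encodes CAR, read 9.90, 9.78 and 9.91 in wild-type and 9.68, 10.03 and 10.57 on transgenic replicates 1, 3 and 4. Its groups overlapped, and its log2 difference was 0.24 ± 0.27 (limma adjusted p = 0.81), or -0.003 without transgenic replicate 4. Nr1i2, for the related receptor PXR, had -0.21 ± 0.29 (-0.48 without that array) and Rxra, for their common partner RXR alpha, 0.17 ± 0.28, the latter -0.44 after local correction of patches (limma adjusted p = 0.84 and 0.87). The transcripts of both receptors thus gave no called difference.

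Por, for the reductase that supplies P450 enzymes with electrons, read 11.68, 11.95 and 11.57 in wild-type and 11.91, 12.35 and 12.71 on transgenic replicates 1, 3 and 4. Its groups overlapped narrowly, with a log2 difference of 0.59 ± 0.27 (limma adjusted p = 0.69), or 0.39 without transgenic replicate 4. Cyb5a, for cytochrome b5, had 0.05 ± 0.19 (-0.45 under median scaling), Cyb5r3, for its reductase, -0.34 ± 0.22, and Alas1, the first enzyme of haem synthesis, -0.03 ± 0.38, or -0.30 without replicate 4. Hmox1, the haem-degrading oxygenase gene, had -0.19 ± 0.26, lay in a patch on 4 arrays and turned to 1.11 after local correction. Electron supply and haem synthesis genes therefore gave no called difference.

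Hsp90aa1, for the chaperone that holds CAR in the cytoplasm, had the smallest p of the list with 1.29 ± 0.44. Its highest transgenic value was 11.47 on replicate 1 and its lowest 9.87 on replicate 4, where both Cyp2b genes were highest (limma adjusted p = 0.69). Its partners gave -0.25 ± 0.24 for Dnajc7, the cochaperone of the CAR complex, and 0.07 ± 0.22 for Ppp2ca, the phosphatase 2A catalytic subunit (-0.22 under median scaling). Esr1, for estrogen receptor alpha, was above background on 0 of 3 wild-type and 3 of 3 transgenic arrays, with log2 values of 5.24, 4.92 and 3.61 against 5.86, 5.50 and 5.83. Against the lowest wild-type values that count as above background it was at least 1.12-fold higher in transgenic livers, and it did not pass (limma adjusted p = 0.69). Nr3c1, for the glucocorticoid receptor, had -0.03 ± 0.37.

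Among the liver transcription factors of the list, Cebpa had -0.51 ± 0.22, Foxa3 0.70 ± 0.31 and Hnf4a 0.45 ± 0.21, the last turning to -0.05 after local correction (limma adjusted p = 0.69 each). Foxa1 had -0.10 ± 0.26, Foxa2 -0.22 ± 0.21 and Onecut1, for HNF6, -0.07 ± 0.30. The RXR genes Rxrb and Rxrg had -0.37 ± 0.22 and -0.15 ± 0.39. The coactivator gene Ppargc1a was above background on 1 array, so that no difference is given. None of these genes passed the test.

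Genes listed as responding to CAR or PXR, other than Cyp2b, had about as many positive as negative differences. Of 37 tested genes, 0 passed limma's test, where 0 of all 34175 features did, and 19 had positive and 18 negative log2 differences. The median was 0.09. Without overlap of the groups 4 genes (10.8%) were higher and 3 (8.11%) lower, where 10.1% and 5.90% of all features were. By smallest p, Sult1d1, a sulfotransferase gene, had 0.68 ± 0.20, Cyp1a2, a caffeine-oxidising P450, -0.56 ± 0.21 and Ces2c, a carboxylesterase gene, -1.11 ± 0.44, or -0.63 without transgenic replicate 4 (limma adjusted p = 0.69 each). Myc and Cdkn1a, a growth regulator and a cell cycle inhibitor, had 1.31 ± 0.53 and 2.22 ± 0.96, the latter with overlapping groups. Cyp3a41a, a P450 of female liver named here after its values were seen, had the largest difference of the list, 4.10 ± 2.13, with 14.68 on transgenic replicate 4 against 6.42 and 7.35 on replicates 1 and 3. It had 1.49 without replicate 4.

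The rest of the Cyp2 family had no called member. Of 28 tested genes, 0 passed, where 0 of all 34175 features did, and 12 were positive and 16 negative. The median log2 difference was -0.08. Without overlap of the groups 1 gene was higher and 1 lower (3.57% each), where 10.1% and 5.90% of all features were. Beside Cyp2g1, the smallest p belonged to Cyp2d9, a male-biased steroid 16-alpha-hydroxylase gene, at -1.01 ± 0.54. Cyp2c37 and Cyp2c40, arachidonic acid P450 genes, had 0.54 ± 0.32 and 0.76 ± 0.46, and Cyp2ab1 had 0.40 ± 0.28 (limma adjusted p = 0.70 to 0.73 for these 4). Cyp2d9 read 10.80 on transgenic replicate 4 against 12.49 and 12.85 on replicates 1 and 3, and Cyp2c40 read 13.31 against 11.98 and 11.58. Without replicate 4, Cyp2d9 had -0.38, Cyp2c40 0.26 and Cyp2c37 0.23.

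Among 28 tested genes of other P450 families, 0 passed, where 0 of all 34175 features did, and the median was -0.06. Without overlap of the groups 4 genes (14.3%) were higher and 3 (10.7%) lower, where 10.1% and 5.90% of all features were. Cyp4a14, a fatty acid omega-hydroxylase gene, read 10.23, 10.17 and 10.43 in wild-type and 11.95, 11.19 and 12.52 in transgenic livers. The transgenic livers, though not the wild-type ones, stood in the same order as for Cyp2b9. The log2 difference of Cyp4a14 was 1.61 ± 0.36 (limma adjusted p = 0.69). Cyp39a1, an oxysterol 7-alpha-hydroxylase gene, had 0.94 ± 0.27, and Cyp7b1, another such gene with male bias, had means of 10.57 ± 0.32 for wild type and 9.57 ± 0.83 for transgenic livers (SD, n = 3 each), with a log2 difference of -0.60 without replicate 4. Cyp4a12b, an arachidonic acid hydroxylase gene of male liver, had -3.06 ± 1.43 and read 5.50 on transgenic replicate 4 against 10.22 and 11.20 on the others. It had -1.32 without that array.

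**Figure D3:**
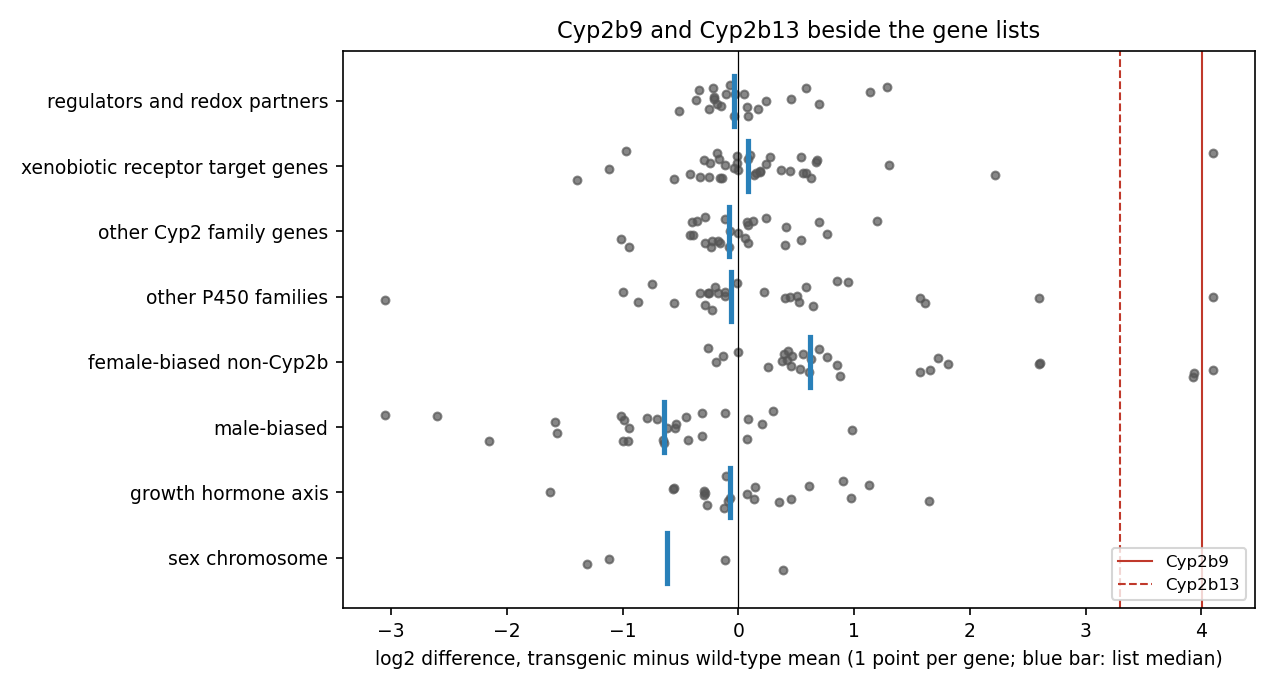
Log2 difference (transgenic minus wild-type mean) of each tested gene in 8 gene lists, 1 point per gene, with the list median as a blue bar and the values of Cyp2b9 (4.00) and Cyp2b13 (3.30) as red lines. The lists of regulators, xenobiotic receptor targets and other P450 genes centre near 0, and the female-biased and male-biased lists have medians of 0.62 and -0.64.

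Since Cyp2b9 and Cyp2b13 are female-biased genes, other sex-biased liver genes were set beside them. Of 28 tested female-biased genes other than Cyp2b, 24 had positive log2 differences, where 51.7% of all features did. In 6 (21.4%) the transgenic side was higher without overlap, beside the background of 10.1%. The median was 0.62, or 0.28 without transgenic replicate 4, and 0 passed limma's test, where 0 of all 34175 features did. Hao2, a peroxisomal hydroxyacid oxidase gene, had a mean of 5.26 ± 0.23 (SD, n = 3) for wild type. It read 7.35, 7.03 and 9.24 in transgenic livers, all above every wild-type value, a log2 difference of 2.61 ± 0.59. It was above background on 1 of 3 wild-type arrays, and its difference was 1.91 without transgenic replicate 4. Sult2a2, a hydroxysteroid sulfotransferase gene, passed the threshold in none of the wild-type livers, and read 6.72, 5.93 and 13.23 on transgenic replicates 1, 3 and 4. Its bound, taken as for Esr1, was at least 8.38-fold, and at least 1.70-fold without replicate 4. Acot3, a peroxisomal thioesterase gene, had 1.65 ± 0.72 (0.84 without replicate 4) and Lpl, for lipoprotein lipase, 0.87 ± 0.35. Sult1e1, for estrogen sulfotransferase, was above background on 0 of 3 wild-type and 2 of 3 transgenic arrays, and was at least 1.25-fold higher by the same bound (limma adjusted p = 0.69 for each of these genes). Sult1e1 was highest on transgenic replicate 1 and lowest of the 3 on replicate 4, unlike the Cyp2b genes.

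Of 27 tested male-biased genes, 22 had negative log2 differences, and in 11 (40.7%) the transgenic side was lower without overlap, beside the background of 5.90%. The median was -0.64, or -0.35 without transgenic replicate 4, and 0 passed, where 0 of all 34175 features did. Hsd3b5, a male-liver steroid dehydrogenase gene, read 12.92, 13.01 and 12.81 in wild-type and 10.26, 11.95 and 8.73 in transgenic livers. Its log2 difference was -2.60 ± 0.77, or -1.80 without transgenic replicate 4. Its order of transgenic livers was that of Cyp2b9 turned over. C8b, for a complement chain, had -0.70 ± 0.20, Nudt7, a peroxisomal coenzyme A hydrolase gene, -0.99 ± 0.37 and Slco1a1, an organic anion transporter gene, -1.58 ± 0.60. Without transgenic replicate 4 the last pair had -0.64 and -0.95. Ugt2b38, a glucuronosyltransferase gene, had -2.16 ± 0.59 but lay in a patch on 4 arrays and had -0.77 after local correction (limma adjusted p = 0.69 for each of these 5). Many genes of both lists belong to families of close copies that probes may not separate, and some are also in the P450 lists.

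These lists and the Y-linked genes also set transgenic replicate 4 apart from the other transgenic livers. The mean of the female-biased list stood 0.64, 0.38 and 2.37 above its wild-type level for transgenic replicates 1, 3 and 4, and that of the male-biased list differed from its own by -0.50, -0.33 and -1.43. The Y-linked genes measured included Ddx3y, an RNA helicase gene, Eif2s3y, a translation factor gene, and Uty, of a histone demethylase gene family. These 3 were above background on 5 of the 6 arrays and not on transgenic replicate 4. Ddx3y read 2.74 there against 6.75 to 7.73 elsewhere, Eif2s3y 4.94 against 8.63 to 9.65, and Uty 5.18 against 6.18 to 7.10. Kdm5d, the remaining one measured, read 9.03 there and 8.32 to 8.74 elsewhere. The array with the highest Cyp2b9 and Cyp2b13 signal was thus the one without signal above background for 3 of 4 Y-linked genes, and the labels give no sex. On transgenic replicates 1 and 3, where those genes were above background, Cyp2b9 was 4.54 and 2.05 log2 units above the wild-type mean. Cyp2b13 by GE34922 was 2.92 and 0.96 units above its own there. The part of sex in the group difference was not tested.

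**Figure D4:**
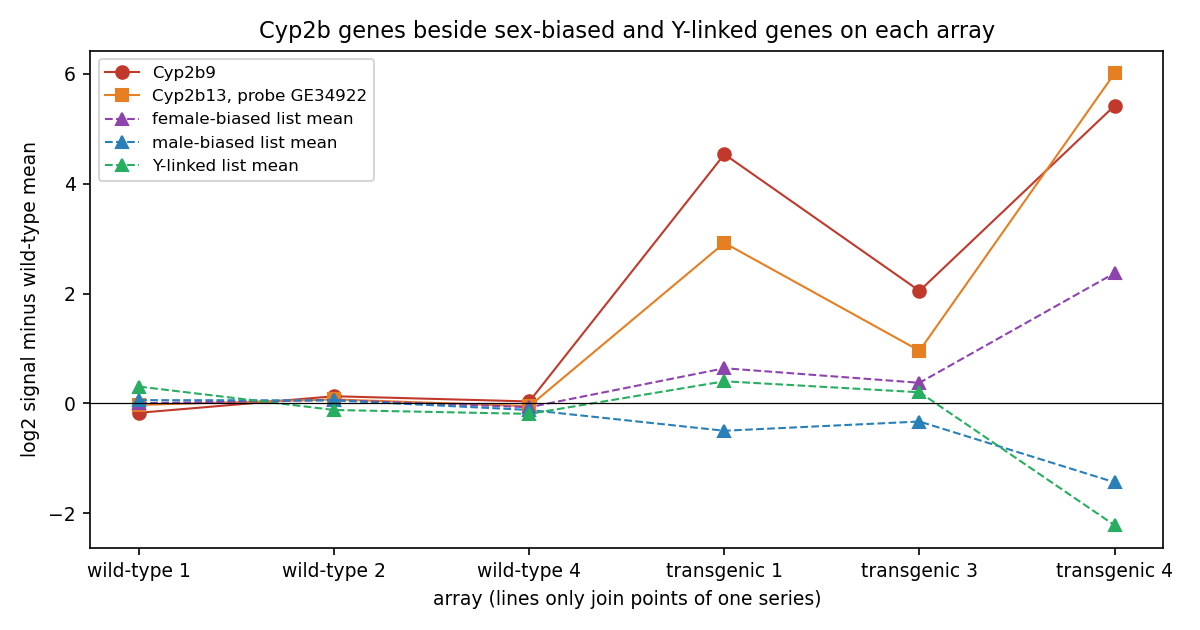
Log2 signal minus the wild-type mean on each of the 6 arrays for Cyp2b9, Cyp2b13 (GE34922) and the means of the female-biased, male-biased and Y-linked lists; lines only join points of one series. On transgenic replicate 4 the Y-linked mean is at -2.22 and the female-biased mean at 2.37, while on replicates 1 and 3 the Y-linked mean is at 0.40 and 0.20 and Cyp2b9 at 4.54 and 2.05.

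Genes of the growth hormone axis, which sets sex-biased expression in liver, gave no called difference. Of 21 tested genes of 24 listed, 0 passed, where 0 of all 34175 features did, and 10 were positive and 11 negative. Stat5b and Ghr, for the growth hormone receptor, were not among the tested genes, and Jak2 was above background on no array. The median was -0.07. Without overlap of the groups 3 genes were higher and 3 lower (14.3% each), where 10.1% and 5.90% of all features were. Stat5a, one of the STAT5 genes, read 7.57, 7.58 and 7.25 in wild-type and 6.75, 7.07 and 6.89 in transgenic livers, a log2 difference of -0.56 ± 0.20 without overlap of the groups. Trim24, for a nuclear receptor cofactor, had 0.98 ± 0.34 (0.66 without transgenic replicate 4). Prlr, for the prolactin receptor, was below the threshold in every wild-type liver and at least 1.16-fold higher in transgenic livers by the bound used for Esr1, with no fold by that bound without replicate 4. Cux2, for a female-specific repressor of male-biased genes, had 0.61 ± 0.32 with overlapping groups (limma adjusted p = 0.69 for each of these 4). Trim24 was highest on transgenic replicate 4 and lowest of the 3 on replicate 3, as were Cyp2b9 and Cyp2b13.

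The genes most like Cyp2b9 and Cyp2b13 across the 6 arrays were taken from 2117 named genes above background on at least 3 arrays and with an SD of at least 0.5 log2 units. Cyp4a14 had the highest Pearson correlation with Cyp2b9, at 0.99, followed by Nop58, a nucleolar protein gene (0.98), the olfactory receptor gene Olfr552 (0.98), Fgl1, for a liver-secreted fibrinogen-like protein (0.98), and Patl2 (0.97). The lowest correlations were those of Mcm10, a replication factor gene (-0.98), Hsd3b5 (-0.98) and Pnpla7, a lysophospholipase gene (-0.98). For Cyp2b13 the highest were Stau2, an RNA-binding protein gene (0.99), Prpf4b, a splicing kinase gene (0.99), Rtl8a (0.99), Gmfg (0.99) and Rasgef1b (0.98), and the lowest Nudt7 (-0.99), Slco1a1 (-0.99) and Hsd3b5 (-0.99). Hsd3b5 was thus at the far end for both genes. These values describe 6 arrays that all genes share and that fall into 2 groups, and they carry no test.

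The tissue label was checked on marker genes. All 5 tested hepatocyte markers were above background on all 6 arrays, with albumin, Alb, at 14.90 to 14.93 in wild-type and 14.90 to 15.15 in transgenic livers. Summed hepatocyte marker signal was 99738 to 114346 in wild-type and 100791 to 107679 in transgenic livers. Perivenous hepatocyte markers, from the zone where many P450 genes are expressed most, summed to 57651 to 66285 and 51640 to 68648. Their log2 differences were -0.01 for Glul, -0.08 for Cyp2e1, -0.11 for Oat and -0.56 for Cyp1a2, the last lower without overlap of the groups. Glul and Cyp2e1 lay in patches on 2 and 3 arrays and had 0.54 and 0.41 after local correction. Summed hepatocyte marker signal overlapped between groups. Markers of T and B cells summed to 678 to 977 in wild-type and 1108 to 1994 in transgenic livers, those of bile duct cells to 150 to 213 and 289 to 544, and those of Kupffer cells and macrophages to 1580 to 2076 and 2102 to 3936. Endothelial markers summed to 2241 to 2787 and 2322 to 3655, stellate cell markers to 535 to 776 and 587 to 941, gallbladder and intestinal markers to 149 to 693 and 528 to 752, and periportal hepatocyte markers to 30130 to 37904 and 29973 to 35847. No tested marker was below background on every array. These sums are not normalized between arrays, and the transgenic arrays were brighter as a whole. After normalization the mean log2 difference was 0.19 for T and B cell markers, 0.12 for bile duct, 0.05 for Kupffer cell and macrophage, -0.54 for endothelial, -0.28 for stellate, -0.02 for gallbladder and intestinal, -0.25 for periportal, -0.19 for perivenous and 0.07 for hepatocyte markers. These means rest on few genes that differed among themselves. The endothelial mean holds -1.66 for Cdh5, above background on 1 array, beside -0.16 for Pecam1, -0.18 for Kdr and -0.14 for Stab2. Krt7 had 0.88, while the other bile duct markers Krt19 and Epcam had -0.22 and -0.29. T and B cell markers ran from -0.74 for Cd3g to 1.01 for Cd3e, the latter above background on 1 array. The part of other cell types was not tested. In bulk tissue more cells of a type and more RNA per cell cannot be told apart.

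The Cyp2b differences kept their direction under every processing setting tried. Leaving aside a fit with the replicate numbers as a block, which the closing section gives, Cyp2b9 ranged from 3.31 without transgenic replicate 4 to 5.03 without transgenic replicate 3. Cyp2b13 by GE34922 ranged from 1.93 to 4.49 under the same settings. GE1541918 ranged from 2.52, with an offset of 50 added to the signal, to 6.40 without transgenic replicate 3, against wild-type values below background. The dim probe of Cyp2b13 was thus the one that the treatment of low values touched most.

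**Figure D5:**
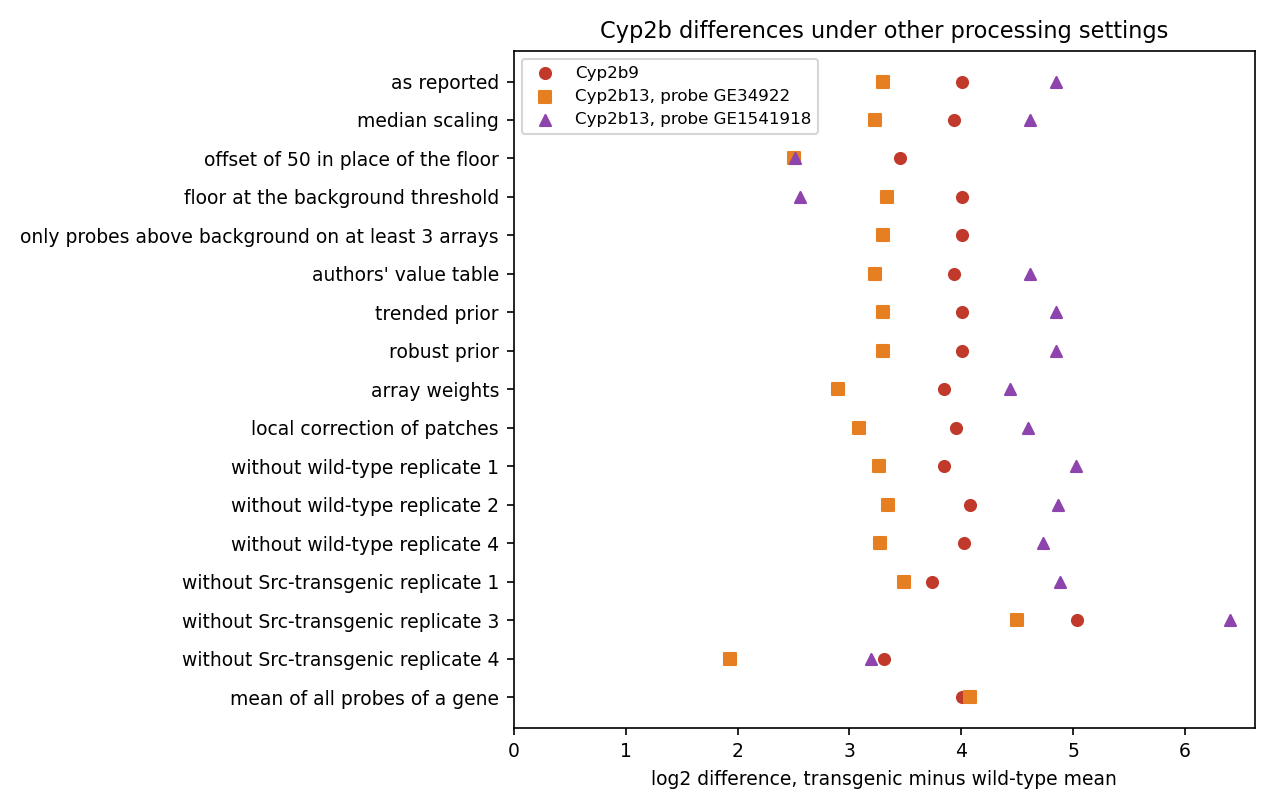
Log2 difference (transgenic minus wild-type mean) of the Cyp2b9 probe and both Cyp2b13 probes as reported and under other processing settings, leaving aside the replicate block. All points lie above 0, from 1.93 for Cyp2b13 (GE34922) without transgenic replicate 4 to 6.40 for GE1541918 without transgenic replicate 3.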

How the data were processed

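Biotin-labelled cRNA from the poly(A)+ part of liver total RNA was put on 1-colour arrays and, per the labels' protocols, detected with streptavidin carrying Alexa-647. The deposited intensity of a spot had background taken out by the authors, per the file headers. A second deposited intensity column, also the authors' value table, was that signal divided by each array's median, per the file headers. The sources used here name neither scanner nor image software.

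Of 35587 spots, 620 controls were left out. Signals under an array's 1st percentile of positive values were raised to it (4.72 to 5.75), and log2 values were quantile normalized. Accessions without versions named 14763 probes to 13971 genes (RefSeq table, GRCm38.p6, for names and gene order), and 20204 probes stayed unnamed. The probe with the highest mean stands for a gene. The background threshold was set from 570 dim control spots, as their median with 3 scaled median absolute deviations added. A patch is where the median deviation of spots within 4 rows and columns passed 0.5, and local correction subtracts it.

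Each feature was tested between groups in R 4.3.3 with limma 3.58.1 (two-sided, Benjamini-Hochberg over 34175 features), and the steps were tested on simulated data. The 2 Cyp2b genes, the 8 lists and the tests were chosen with earlier results of these data known. Named were all Cyp2b probes, all regulator genes but 1 that is not reported here, all Y-linked genes, the 5 smallest p of each other list, and for each Cyp2b gene the 5 most and 3 least similar patterns. Alternatives were other scalings, treatments of low values, spread models, array weights, local correction, each array left out, a replicate block and the mean of a gene's probes. Figures used matplotlib 3.10.9.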

Additional observations from a re-analysis of the deposited data

How the results depend on the processing

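The Cyp2b differences stayed positive under all alternatives. Leaving out 1 array at a time gave 3.31 to 5.03 for Cyp2b9 on the log2 scale (4.00 as reported) and 1.93 to 4.49 for Cyp2b13 by GE34922 (3.30 as reported). For GE1541918 (4.85 as reported) it gave 3.19 to 6.40, while an offset of 50 gave 2.52 and a floor at the background threshold 2.56. Wild-type values of that probe are below the threshold, so its size rests on how low values are raised. Transgenic replicate 4 was the array whose absence moved both Cyp2b13 probes by over 1.5 times.

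Over all 34175 features, limma called 0, with 1493 higher and 931 lower at an unadjusted p under 0.05 (61.6% higher). Median scaling gave 943 higher and 1312 lower (41.8% higher), moving the median of all features from 0.02 to -0.08, and the authors' value table gave 943 and 1309 (41.9%). The floor at the background threshold called 1 feature, the unnamed probe GE1470104, and gave 1830 and 597 (75.4%). Testing only probes above background on at least 3 arrays gave 605 lower (68.8% higher), with fewer probes tested. Local correction gave 1174 and 1430 (45.1%). Leaving out 1 array at a time called 0 to 1 feature, with 947 to 1554 higher and 630 to 1329 lower, and the single calls were the unnamed probes GE1410659 without wild-type replicate 1 and GE115078 without transgenic replicate 4. No member of the 8 lists passed the adjusted p under any alternative.

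Several list medians near 0 changed sign. The regulators (-0.03) had -0.23 under both median scaling and the authors' table, 0.058 after local correction, and -0.038 to 0.054 with 1 array left out. The CAR and PXR targets (0.09) had -0.22 under both scalings, -0.013 after local correction and -0.052 to 0.17 with 1 array left out. Other Cyp2 genes (-0.08) had -0.35 under both scalings, -0.021 after local correction and -0.093 to 0.022 with 1 array left out. Other P450 families (-0.06) had -0.16 under both scalings and -0.078 to 0.077 with 1 array left out, and the growth hormone axis (-0.07) had -0.14 to 0.092. The female-biased median (0.62) ran from 0.28 to 1.02, the male-biased one (-0.64) from -0.75 to -0.35 and the Y-linked one (-0.61) from -1.16 to 0.32, the last turning positive without transgenic replicate 4.

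Same-numbered arrays (1 and 4) had deviations correlated at 0.06 and 0.06, other pairs at -0.07 to 0.02. Whether same-numbered arrays share more than a number was not tested. With the replicate number as a block, 679 features were higher and 669 lower, Cyp2b9 had 5.05, GE34922 4.51 and GE1541918 6.41. Under that block other Cyp2 genes had a median of 0.049, other P450 families 0.087 and the growth hormone axis 0.040, and Hmox1 had 0.026, Ppp2ca -0.0037, Onecut1 0.20 and Nr3c1 0.21.

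Of 1203 alternative values for 71 named genes, 49 over 18 genes turned direction, and the cause was not tested. Under both median scaling and the authors' table Ppp2ca had -0.22, Cyb5a -0.45, Cyp2s1 -0.18 and Cyp2a5 -0.084 and -0.083, respectively. The background floor gave Ppargc1a 0.0058. Array weights gave Nr3c1 0.062, Uty 0.18 and Cyp2s1 -0.026. Local correction gave Hnf4a -0.054, Ppargc1a 0.12, Hmox1 1.11, Rxra -0.44, Foxa1 0.12, Nr3c1 0.16 and Cyp2b19 -0.10. With 1 array left out, Ppp2ca ranged from -0.020 to 0.20, Cyb5a from -0.038 to 0.12, Cyp2s1 from -0.37 to 0.51, Cyp2a5 from -0.066 to 0.48, Ppargc1a from -0.40 to -0.07, Nr3c1 from -0.38 to 0.19, Uty from -0.47 to 0.48, Hnf4a from 0.32 to 0.53, Hmox1 from -0.35 to 0.054, Rxra from -0.091 to 0.31 and Foxa1 from -0.28 to 0.047. Cyp2b19 ranged from -0.064 to 0.30, Onecut1 from -0.27 to 0.14, Rxrg from -0.40 to 0.21, Alas1 from -0.30 to 0.35, Nr1i3 from -0.0029 to 0.44, Eif2s3y from -2.04 to 0.093 and Ddx3y from -2.10 to 0.40. Signal over background limits GE1541918, Sult1e1, Esr1 and Prlr, of which the last 3 had 0.74, 0.34 and 0.42 with the floor at the background threshold.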
